A study of Homo sapiens with 2 samples.

Results

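HSP90 is a chaperone that keeps kinases, steroid receptors and the aryl hydrocarbon receptor in a shape ready for activation, and it works with a set of partner proteins called co-chaperones. The peaks of MSI2 CLIP-seq under 9 gene IDs of this system were taken from the lists of both replicates: the 4 HSP90 genes HSP90AA1, HSP90AB1, HSP90B1 and TRAP1, and the 5 co-chaperone genes CDC37, AHSA1, FKBP4, FKBP5 and STIP1. They held 57 of the 25920 peaks in replicate 1 and 55 of the 25243 peaks in replicate 2. MSI2, or Musashi-2, binds RNA, and CLIP-seq maps where it touches RNA by crosslinking with ultraviolet light, recovering the protein with an antibody and sequencing the attached fragments. Both libraries came from the established acute promyelocytic leukaemia cell line NB4, of human origin and with no treatment in the labels, crosslinked at 400 mJ per square centimetre. They form 1 group of 2 replicates, and nothing in the labels says that these were separate cultures, so differences between them may be technical. Input, control antibody and MSI2 depletion were not analysed here, so a peak found in both lists cannot be told from repeatable background.

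HSP90AA1 and HSP90AB1 encode the stress-inducible and the constitutive cytosolic HSP90. HSP90B1 encodes the endoplasmic reticulum form, GRP94, and TRAP1 the mitochondrial form. Among the co-chaperones, CDC37 brings kinases to HSP90, AHSA1 stimulates its ATPase, STIP1 links it to HSP70, and FKBP4 and FKBP5 are immunophilins found in steroid receptor complexes. The study asks how MSI2 acts on the aryl hydrocarbon receptor in blood stem cells, and HSP90 holds that receptor in the cytosol. All positions below are on hg19. Their place relative to exons and introns was not analysed here, as gene models of that build were not used.

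The tally of a peak is the whole number that ends each deposited peak name; no header explains it, and it is treated here as a strength that behaves like a number of reads. The whole lists sum to tallies of 155598 and 133644 for replicates 1 and 2, and neither sum is a sequencing depth, which is unknown. A peak was called recurrent where the other list held a peak on its strand sharing at least 1 nt with it. Tallies were divided neither by transcript length nor by transcript abundance, which was not analysed here. They therefore describe how much was listed under a gene, and neither an expression level nor the binding per transcript.

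Peaks were listed for 8 of the 9 genes in each replicate, and 7 of these 8 had a recurrent peak. For comparison, 45.5% of the 8801 gene IDs with a peak in either list had a recurrent peak, a share not matched on the number of peaks per gene. Only 63.1% of those gene IDs had a peak in both lists, whereas these 8 genes all did. The share of 7 of 8 and the 45.5% therefore rest on unlike bases. In replicate 1, 35 of the 57 peaks were recurrent, or 61.4% (95% Wilson interval 48.4% to 72.9%), beside 35.7% of all peaks in that list. In replicate 2, 36 of the 55 were recurrent, or 65.5% (52.3% to 76.6%), beside 37.3% of all peaks. These intervals cover counting error only. Pooled over their genes, the HSP90 genes and the co-chaperones differed in this share. The 3 HSP90 genes with peaks held 33 peaks in each replicate, of which 26 (78.8%, interval 62.2% to 89.3%) were recurrent in each. By gene these were 9 of 10 and 9 of 11 at HSP90AA1 and 13 of 16 in each replicate at HSP90B1. At HSP90AB1 they were fewer, 4 of 7 and 4 of 6. The intervals treat peaks of the same gene as independent. The 5 co-chaperone genes held 24 and 22 peaks, of which 9 (37.5%, 21.2% to 57.3%) and 10 (45.5%, 26.9% to 65.3%) were recurrent, near the share of all peaks. Peak strength differed along with this, with a median tally of 10 and 7 at the HSP90 genes and 4 and 4.5 at the co-chaperones, and the difference between these sets of genes was not tested.

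Per length of listed peak, the genes fell in another order. Tallies per 100 nt of peak were 41.3 and 36.1 at HSP90AB1, 38.7 and 32.4 at HSP90AA1 and 25.1 and 20.5 at HSP90B1, in replicates 1 and 2. At the co-chaperones they ran from 7.32 (AHSA1) to 12.8 (FKBP4) in replicate 1 and from 6.0 (AHSA1) to 10.4 (CDC37) in replicate 2. In both libraries each of the 3 HSP90 genes thus lay above each co-chaperone, while HSP90AA1 and HSP90AB1 differed from each other by less than either differed between libraries. No value over all gene IDs is given beside them, so they do not show whether any gene is unusual. The higher tallies of the HSP90 peaks enter this measure directly. These values were not scaled to transcript abundance, and its part in the order of the genes was not tested.

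**Figure D1:**
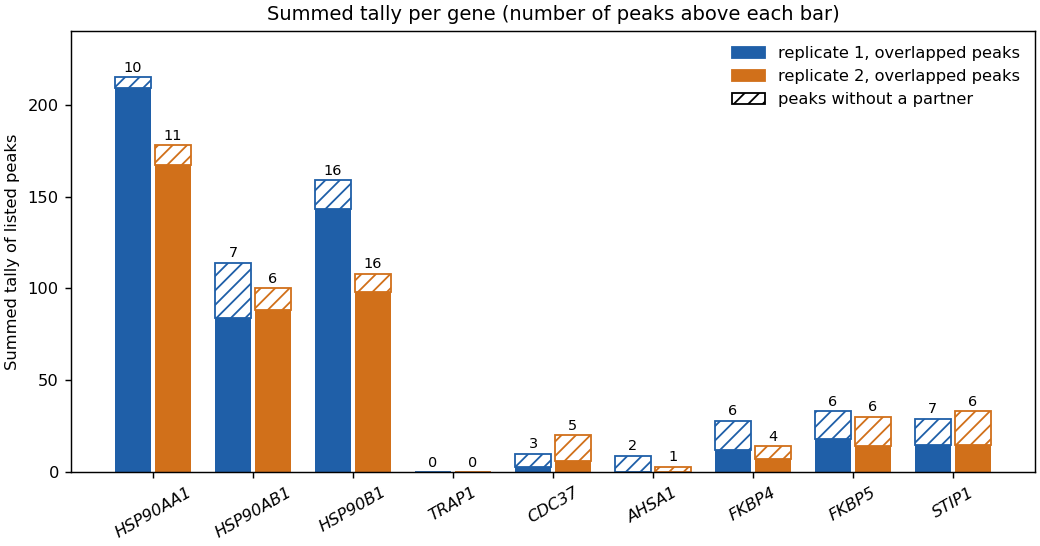
Summed tally of the peaks listed under each gene (vertical axis) in replicate 1 (blue) and replicate 2 (orange). Filled parts are recurrent peaks, hatched parts are peaks without a partner in the other replicate, and the number over each bar is the count of peaks. HSP90AA1 reaches 215 and 178, while no co-chaperone exceeds 33 and TRAP1 has no peak.

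HSP90AA1 (ENSG00000080824.14, minus strand of chromosome 14) had the highest summed tally of the 9 genes, 215 over 10 peaks in replicate 1 and 178 over 11 peaks in replicate 2. It ranked 22nd among 7252 gene IDs in replicate 1 and 31st among 7101 in replicate 2. Its signal was densest in a run of 4 peaks at the 3' end of the listed stretch, between 102547422 and 102548059 in replicate 1, a length of 638 nt. Going from the 3' end, these peaks had tallies of 49, 57, 32 and 18 in replicate 1 and of 34, 47, 20 and 12 in replicate 2. The order of the 4 was the same in both libraries, and each was lower in replicate 2.

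The run held 72.6% of the gene's tally in replicate 1 and 63.5% in replicate 2. The strongest of the run lay at 102547600 to 102547713 in replicate 1 and 102547609 to 102547717 in replicate 2, with deposited p-values of 1.94e-32 and 1.58e-28; the p of each peak is the authors' own. The short inner intervals that the files give within each peak were centred at most 2 nt apart across the 4 pairs. Beyond the run, 5 further recurrent peaks continued to 102552399, the 5'-most listed base. Their tallies, in order toward the 5' end, were 9, 9, 7, 10 and 18 in replicate 1 and 12, 9, 6, 12 and 15 in replicate 2. The 5'-most of them, at 102552336 to 102552399 in replicate 1, matched the weakest peak of the 3' run in replicate 1 and exceeded it in replicate 2. The peaks without a partner were weak: 1 in replicate 1 with a tally of 6, and 2 in replicate 2 with tallies of 5 and 6. Recurrent peaks carried 97.2% and 93.8% of the tally of HSP90AA1.

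HSP90AB1 (ENSG00000096384.15, plus strand of chromosome 6) resembled its paralog at the 3' end but rested on a single strong peak. This peak, at 44221288 to 44221394 in replicate 1 and 44221286 to 44221418 in replicate 2, had tallies of 56 and 54. It held 49.1% and 54.0% of the gene's summed tally of 114 and 100. Over gene IDs with 6 or more peaks, the strongest peak held a median of 23.1% in replicate 1 and 22.2% in replicate 2. The inner intervals of the pair had the same centre. A weaker peak, with tallies of 9 and 11, lay 28 nt upstream of it in replicate 1 and 16 nt upstream in replicate 2. The other recurrent peaks lay further 5', at 44219157 to 44219200 with tallies of 10 and 15, and at 44219885 to 44219914 with tallies of 9 and 8.

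The 5' part of HSP90AB1 differed between the libraries. Replicate 1 listed a peak at 44218294 to 44218337 with a tally of 13, and another only 13 nt wide at 44218785 to 44218797 with a tally of 11. Neither was overlapped in replicate 2, whose nearest peak to the first was 26 nt away, at 44218250 to 44218267, with a tally of 6. These were the only 2 of the 17 member peaks of replicate 1 with a tally of 10 or more that lacked a partner. In that class 87.1% of all replicate 1 peaks were recurrent, against 15 of 17 here. In replicate 2 all 12 member peaks of that strength were recurrent, beside 89.4% of all such peaks. A further pair of narrow peaks, at 44219757 to 44219762 in replicate 1 and 44219745 to 44219751 in replicate 2, each with a tally of 6, missed each other by 5 nt.

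HSP90B1 (ENSG00000166598.8, plus strand of chromosome 12) had the most recurrent peaks of the 9 genes, 13 of 16 in each replicate, spread over 16.9 kb. By number of recurrent peaks it was 10th among all gene IDs in both lists. The strongest peak lay near the 3' end, at 104340628 to 104340717 in replicate 1 and 104340645 to 104340715 in replicate 2. Its tallies were 27 and 26. It also had a group of peaks toward the 5' side. Between 104325314 and 104328027, 6 recurrent peaks held 50.3% of its tally in replicate 1 and 38.9% in replicate 2. Their tallies, from the 5' side, were 15, 11, 24, 11, 13 and 6 in replicate 1 and 10, 5, 9, 7, 5 and 6 in replicate 2.

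Most of these 6 peaks were weaker in replicate 2, and the sums were 80 and 42, a log2 ratio of -0.93. The other 7 recurrent peaks of the gene summed to 63 and 56, a log2 ratio of -0.17. This division of the gene was chosen after its values were seen. Most of the 6 peaks, but fewer of the other 7, had a replicate 1 tally of 10 or more. The median log2 ratio over all recurrent peaks was -0.22, and it was lower in that class, as given below. The 2 sums were thus not compared at equal tally. The largest drop was at 104326083 to 104326154, from a tally of 24 to 9, a ratio of 0.375 (95% exact binomial interval 0.153 to 0.836, counting error only). Among all recurrent peaks with a replicate 1 tally of 10 or more, 11.1% had a lower ratio, and the median log2 ratio in that class was -0.54. In replicate 1 this peak abuts the one that ends at 104326082, while in replicate 2 the corresponding peaks were 32 nt apart. HSP90B1 peaks were often narrow, from 2 to 90 nt wide in replicate 1 and 9 to 71 nt in replicate 2. A peak 2 nt wide at 104341089 to 104341090 in replicate 1 and one 9 nt wide at 104341087 to 104341095 in replicate 2 both had a tally of 4.

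**Figure D2:**
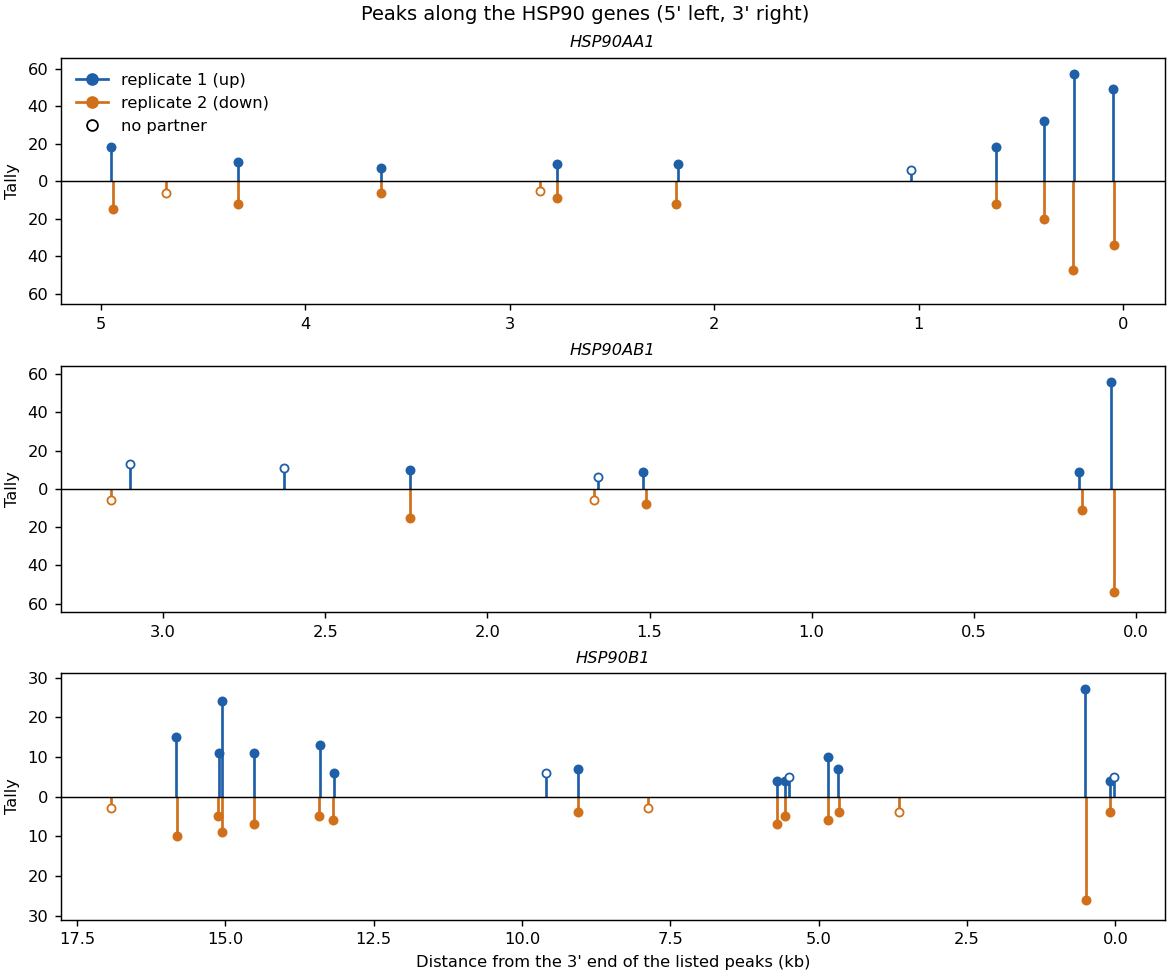
Tally of each listed peak of HSP90AA1, HSP90AB1 and HSP90B1 (vertical axis, replicate 1 upward and replicate 2 downward) against its distance in kb from the 3' end of the listed peaks, with the 5' side at the left. Open circles are peaks without a partner. The mirrored stems at the 3' end reach 57 and 47 in HSP90AA1 and 56 and 54 in HSP90AB1, and HSP90B1 has a group of 6 recurrent peaks toward its 5' side.

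TRAP1, the mitochondrial HSP90, had no peak under ENSG00000126602 in either list. Every listed peak had a tally of 3 or more and a p under 0.05, so fragments below those limits would not show, and the absence of a peak does not show that MSI2 was absent from the transcript.

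The co-chaperone genes had lower tallies, and none of their peaks reached a tally of 10. FKBP5 (ENSG00000096060.10, minus strand of chromosome 6) had 6 peaks in each replicate, with summed tallies of 33 and 30. Its 3 recurrent peaks lay at 35542854 to 35542909, with tallies of 5 and 4, at 35543477 to 35543539, with tallies of 9 and 5, and at 35547939 to 35547984, with tallies of 4 and 5. The inner intervals of each pair were centred within 10 nt. Most of its peaks were clustered near the 3' end, 5 of 6 in replicate 1 and 4 of 6 in replicate 2 lying between 35541603 and 35543539. A peak of tally 8 at 35542222 to 35542293 in replicate 1 had no partner, and the nearest replicate 2 peak, of tally 6, was 148 nt away. Replicate 2 also listed a peak at 35565123 to 35565182 with a tally of 5, far 5' of the others and 17138 nt from any replicate 1 peak of the gene.

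STIP1 (ENSG00000168439.12, plus strand of chromosome 11) had 7 and 6 peaks with summed tallies of 29 and 33, and 3 peaks were recurrent. They lay at 63965387 to 63965430, with a tally of 3 in each library, at 63971044 to 63971095, with tallies of 6 and 9, and at 63971816 to 63971892, with tallies of 6 and 3. Only the weakest pair had inner intervals close together, with centres 1 nt apart, while those of the other pairs were 36 and 20 nt apart. FKBP4 (ENSG00000004478.5, plus strand of chromosome 12) had 6 and 4 peaks with summed tallies of 28 and 14. Its 2 recurrent peaks were neighbours near the 3' end, at 2912547 to 2912581 with tallies of 4 and 3, and at 2912680 to 2912738 with tallies of 8 and 4. Its second-strongest replicate 1 peak, of tally 6 at 2909581 to 2909620, was 1664 nt from the nearest replicate 2 peak.

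CDC37 (ENSG00000105401.2, minus strand of chromosome 19) had 3 peaks with a summed tally of 10 in replicate 1 and 5 with a summed tally of 20 in replicate 2. Its 1 recurrent peak of replicate 1, at 10502334 to 10502367 with a tally of 3, was overlapped by a pair of touching peaks in replicate 2, each also with a tally of 3. Beside it, a replicate 1 peak that ended at 10502080 and a replicate 2 peak that started at 10502089 were 8 nt apart, with tallies of 4 and 6. CDC37 was the gene with the largest shift toward replicate 2, a log2 ratio of summed tallies of 1.00 (95% exact binomial interval -0.16 to 2.26), against -0.22 for the whole lists. Chromosome 19 as a whole held 3.97% of the peaks of replicate 1 and 5.89% of those of replicate 2, and its part in the CDC37 values was not tested. AHSA1 (ENSG00000100591.3, plus strand of chromosome 14) had no recurrent peak. Replicate 1 listed peaks at 77930970 to 77931015 and 77935602 to 77935678, with tallies of 3 and 6. Replicate 2 listed 1 peak, of tally 3, at 77924524 to 77924573, which was 6396 nt from the nearer of them.

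**Figure D3:**
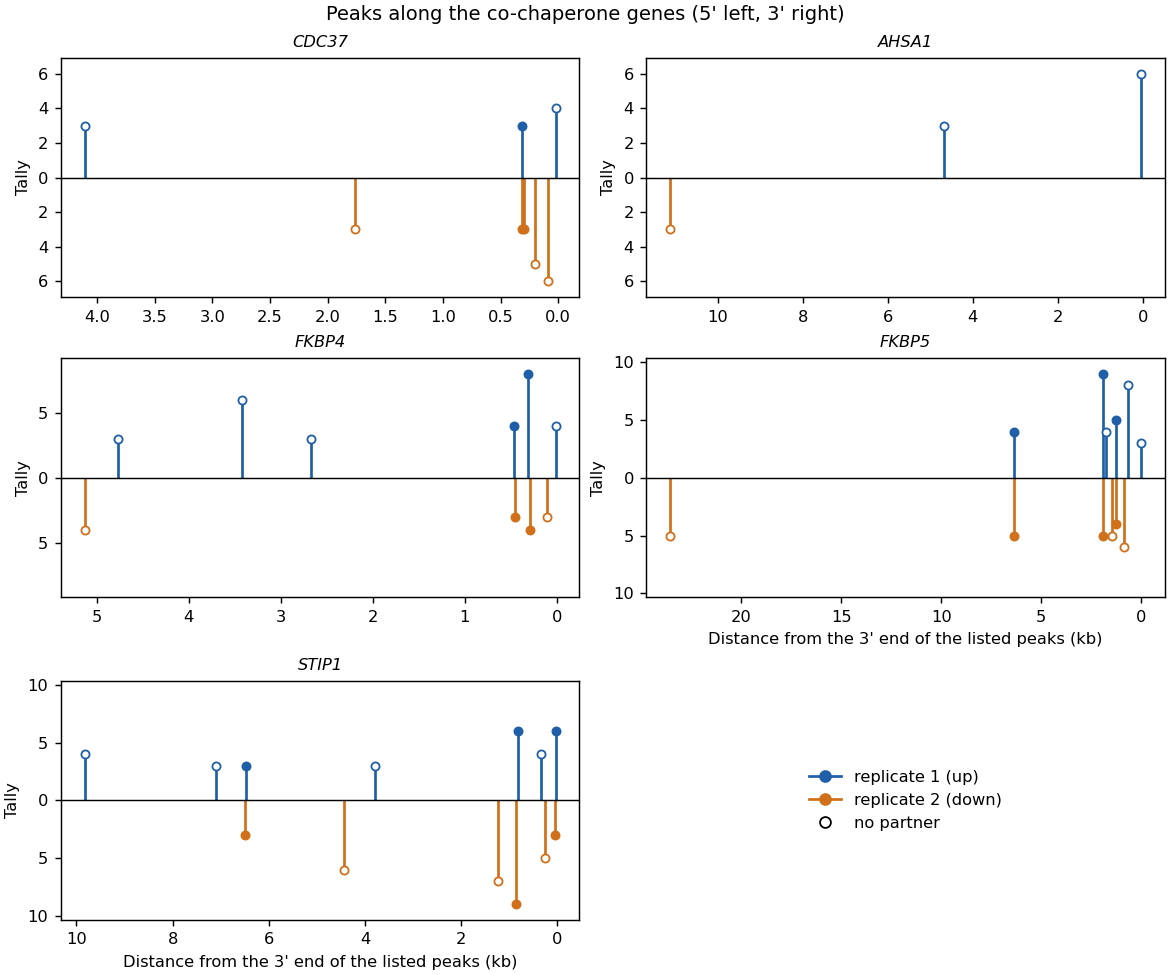
Tally of each listed peak of CDC37, AHSA1, FKBP4, FKBP5 and STIP1 (vertical axis, replicate 1 upward and replicate 2 downward) against its distance in kb from the 3' end of the listed peaks, with the 5' side at the left; the tally axis differs between genes. Filled circles are recurrent peaks and open circles have no partner. Tallies reach at most 9, and the recurrent peaks lie mostly near the 3' end, while AHSA1 has none.

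In the whole lists, recurrence rose with each class of tally. The member peaks followed that order in replicate 1 but not between the lower classes of replicate 2, and their weakest peaks were recurrent more often than the background. With a tally of 3 to 4, 7 of 19 member peaks of replicate 1 (36.8%, interval 19.1% to 59.0%) and 10 of 17 of replicate 2 (58.8%, 36.01% to 78.4%) were recurrent, beside 16.4% and 21.1% of all such peaks. The 10 of replicate 2 include both touching CDC37 peaks, which overlap the same replicate 1 peak. With a tally of 5 to 9, 13 of 21 (61.9%, 40.9% to 79.2%) and 14 of 26 (53.8%, 35.5% to 71.2%) were, beside 47.6% and 57.4%. In the middle class the share of all peaks thus lay inside the members' interval in both replicates. At equal tally the co-chaperones were not uniformly below the HSP90 genes. With a tally of 5 to 9, 5 of 8 co-chaperone peaks (62.5%) and 8 of 13 HSP90 peaks (61.5%) were recurrent in replicate 1, and 3 of 11 (27.3%) and 11 of 15 (73.3%) in replicate 2. With a tally of 3 to 4, these were 4 of 16 (25.0%) and 3 of 3 in replicate 1, and 7 of 11 (63.6%) and 3 of 6 in replicate 2. Classes of this size allow no firmer statement.

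Recurrent peaks of the HSP90 genes were spread along the listed stretch, while those of the co-chaperones lay mostly toward its 3' end, as in the lists as a whole. Position was set at 0 for the 5' end and 1 for the 3' end of the stretch that the peaks of a gene ID span in either list. The median position of recurrent peaks was 0.54 in each replicate over the 26 peaks of the HSP90 genes. For the co-chaperones it was 0.92 in each replicate, over 9 and 10 peaks, with 1 STIP1 pair at 0.34 and 1 FKBP5 pair at 0.73 as the exceptions. Over all recurrent peaks of gene IDs spanning 3 kb or more it was 0.90 in each replicate. The difference between these sets was not tested. Per gene, the replicate 1 median was 0.56 in HSP90AA1, 0.73 in HSP90AB1 and 0.47 in HSP90B1, and 0.92 in each of the 4 co-chaperones with a recurrent peak. Over all gene IDs whose span lies between the shortest and the longest span of the members, 3.17 and 23.6 kb, the median was 0.84 in each replicate. It was 0.77 over the 297 of them in replicate 1 that had 4 or more recurrent peaks, a class that the HSP90 genes belong to. Over all 35 recurrent member peaks of replicate 1 it was 0.71, and 0.52 over the 23 left with a tally of 5 or more in both lists, of which 2 were co-chaperone peaks.

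The strongest peaks of all 3 HSP90 genes were at the 3' end or near it, and by tally the picture differed for HSP90AA1 and HSP90AB1. The share of the gene's tally within 1 kb of the 3' end of the listed stretch was 72.6% and 63.5% in HSP90AA1 and 57.0% and 65.0% in HSP90AB1. In HSP90B1 it was 22.6% and 27.8%. Over gene IDs with 3 or more peaks and a span of 3 kb or more, the median share was 33.3% in replicate 1 (interquartile range 17.9% to 55.9%) and 31.6% in replicate 2 (14.6% to 51.9%). HSP90AA1 and HSP90AB1 thus lay above the upper quartile in both libraries, and HSP90B1 lay inside the interquartile range in both. The spans are set by the peaks themselves and not by gene models, and they differ in length. A window of 1 kb is a larger part of a short span, which raises the share expected there. The spans of HSP90AA1 and HSP90AB1 were 4.98 and 3.17 kb, and the background had no upper limit of span. These shares were thus not compared at equal span.

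Paired tallies of the members shifted between the libraries about as those of other recurrent peaks did. Of the 35 pairs, 22 had a lower tally in replicate 2, 5 an equal one and 8 a higher one, beside 55.3% lower among all 9246 pairs. The median log2 ratio of replicate 2 to replicate 1 was -0.26 for the members and -0.22 for all pairs. By gene, the log2 ratio of summed tallies was -0.27 (95% exact binomial interval -0.57 to 0.02) for HSP90AA1, -0.19 (-0.59 to 0.21) for HSP90AB1 and -0.56 (-0.92 to -0.20) for HSP90B1. All 3 intervals hold the ratio of the whole lists, -0.22. The inner intervals were centred within 10 nt of each other in 28 of the 35 member pairs, or 80.0%, beside 66.9% of all pairs. In HSP90AA1 this was so for all 9 pairs, with a median distance of 2 nt.

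**Figure D4:**
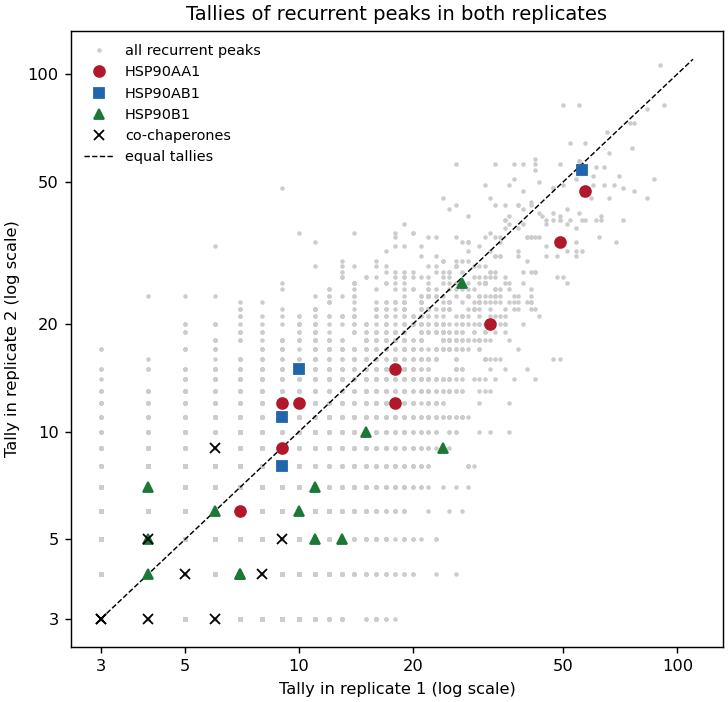
Tally of each recurrent peak in replicate 1 (horizontal axis, log scale) and of its partner in replicate 2 (vertical axis, log scale), for all 9246 recurrent peaks (grey) and for the member genes (coloured symbols; crosses are the co-chaperones). The dashed line marks equal tallies. The strongest HSP90AB1 pair (56 and 54) lies close to the line, and the HSP90B1 pair of 24 and 9 lies well below it.

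Narrow peaks were listed more at the HSP90 genes than at the co-chaperones, and mostly at HSP90B1, though no difference between genes was tested. Peaks under 20 nt wide made up 8 of 33 (24.2%) at the HSP90 genes in replicate 1 and 9 of 33 (27.3%) in replicate 2. HSP90B1 held most of these in both replicates. HSP90AA1 held only a 19 nt peak in replicate 1 and a 14 nt peak in replicate 2. HSP90AB1 held peaks 13 and 6 nt wide in replicate 1 and 18 and 7 nt wide in replicate 2. At the co-chaperones they were 0 of 24, which allows a share of up to 12.5%, and 1 of 22. In the whole lists 13.8% and 17.3% of peaks were this narrow. The deposited p did not depend on the tally alone: among replicate 1 member peaks with a tally of 6, it ran from 1.19e-04 for a 9 nt peak of HSP90B1 to 5.55e-03 for a 19 nt peak of HSP90AA1, around a median of 7.53e-04 for all peaks of that tally.

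The gene IDs most like HSP90AA1 and HSP90AB1 in what was listed were sought by Euclidean distance over 4 values, log2(1 + peaks) and log2(1 + summed tally) in each of the 2 replicates. The nearest to HSP90AA1 was ENSG00000111716.8, at 21788287 to 21807542 of chromosome 12, at a distance of 0.46, with 8 and 10 peaks and summed tallies of 174 and 160. The next were at 5566909 to 5570195 of chromosome 7 and 43449564 to 43800091 of chromosome 2, at distances of 0.58 and 0.60. The nearest to HSP90AB1 was ENSG00000125691.8, at 37005535 to 37009355 of chromosome 17, at a distance of 0.26, with 6 peaks in each replicate and summed tallies of 104 and 92. The next were at 118573993 to 118583389 of chromosome 12 and at 6198 to 7350 of the mitochondrial chromosome, both at a distance of 0.30. The paralogs themselves were 1.52 apart. Any gene ID outside the nearest 3 is further away by construction, so this does not show whether 1.52 is unusual.

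Reads from near-identical copies are a limit for these genes. RefSeq's table of GRCh38.p14 names 5 pseudogenes of the HSP90AA, 6 of the HSP90AB and 2 of the HSP90B series. Among the co-chaperones it names 5 for FKBP4, 3 for STIP1, 2 for CDC37 and 1 for the AHSA series. The sources used here do not say how reads matching several places were treated. No member interval was listed under another gene ID, and no peak of another gene ID lay inside the stretch of a member in either list. This covers only the members' own positions. It cannot show whether reads from copies elsewhere in the genome were placed there.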

How the data were processed

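The deposited data are 1 peak list per library, on hg19. The submitters' processing notes name STAR 2.3.0e, Bowtie 1.0.0 and cutadapt. The file names record trimming of poly(A) and adapters and removal of duplicates; the peak caller was not given in the sources used here. Each line holds a position, a p-value as deposited by the authors, an inner interval, and a name made of an Ensembl gene ID, a running number and the tally. Other co-chaperones, pseudogenes and markers of the labelled cell type were not analysed here, because the tables used do not pair Ensembl IDs with names; the names of the 9 genes came with their list of IDs. The members and lists were chosen with earlier results of these data known. All 9 members were named, and the 3 gene IDs nearest to each cytosolic HSP90 gene. No test between groups was possible with 1 group, so values are descriptions. Shares carry 95% Wilson intervals and tally ratios exact binomial intervals, covering counting error only. Overlap finding was tested on simulated data. The classes by tally, width and position were chosen after seeing the data. Positions are counted from 1. Python 3.11.15 was used with SciPy 1.17.1, pandas 2.3.3, matplotlib 3.10.9 and NumPy 2.4.6.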

Additional observations from a re-analysis of the deposited data

How the results depend on the processing

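Of 31 recomputed values, 22 stayed within the margin set for them (the Wilson interval for a share, 1.5 times for a count, 1 SD over the replicates for the position). Recurrent member peaks made up 49.1% to 75.4% of replicate 1 member peaks and 50.9% to 78.2% of those of replicate 2, above the share of all peaks under each of the 6 alternatives; the nearest were 60.5% of members and 56.2% of all peaks in replicate 2 with a tally of 5 or more. Extending peaks by 100 nt gave 75.4% and 78.2%, and a reciprocal overlap of 50% gave 50.9% in replicate 2. A tally of 5 or more left 23 recurrent member peaks, by construction fewer than 35, and 5 genes in place of 7. Without 1 replicate, recurrence cannot be judged. The values taken there are the 8 genes and the 55 to 57 peaks of the members in the remaining list. They are among the 31, the genes as within the margin and the peaks as outside it, and they do not bear on recurrence. The median position of recurrent member peaks was 0.71, with 0.72 in replicate 2, 0.69 under reciprocal overlap and 0.52 with a tally of 5 or more. No paired analysis was possible because the libraries form 1 group. The depth of the libraries is unknown, and the co-chaperone peaks rest on tallies of 3 to 9.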

Other observations

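The running number in the peak names skips values at some genes, counted here from 0 up to the highest number listed. At AHSA1, replicate 1 listed 2 peaks with 4 numbers skipped and replicate 2 listed 1 peak with 1 skipped. FKBP5 had 2 numbers skipped in each replicate, FKBP4 had 2 and STIP1 and HSP90B1 1 each in replicate 2, and HSP90AA1, HSP90AB1 and CDC37 had none. Over all gene IDs, 22.9% in replicate 1 and 23.6% in replicate 2 had a skipped number. The sources used here do not say what the skipped numbers stood for.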
